A study of Mus musculus with 24 samples.

Results

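The chromatin around 8 genes encoding transcription factors of hair follicle stem cells (HFSCs) was examined: Lhx2, Tcf7l1, Tcf7l2, Nfatc1, Nfib, Nfix, Tbx1 and Foxc1. Every ATAC-seq peak that overlapped a member's gene body (GENCODE annotation of GRCm38, protein-coding genes) or the 50 kb on either side of it was taken, from all 12 deposited peak lists. Peaks of different lists that overlapped by at least 1 bp were joined into a region. The 8 windows held 265 of the 134385 regions of the series: 12 at Lhx2, 37 at Tcf7l1, 35 at Tcf7l2, 35 at Nfatc1, 70 at Nfib, 39 at Nfix, 21 at Tbx1 and 16 at Foxc1. Of these regions, 149 lay in introns, 69 were intergenic, 24 lay over exons and 23 over an annotated transcription start site (TSS). Windows of the compact genes Tbx1 and Foxc1 spanned 110 kb and 106 kb, and that of Nfib 516 kb, so counts of regions are not compared between genes. The windows of Nfix, Tcf7l1 and Tbx1 also took in the start sites of 9, 3 and 3 other protein-coding genes, and those of the other 5 members none. Other genes can reach into a window with their bodies, as Gnb1l does beside Tbx1.

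The series addresses how re-activation of SOX9, a pioneer factor of the hair follicle lineage, changes accessible chromatin in epidermal stem cells (EpdSCs). Accessibility was assayed by ATAC-seq, in which Tn5 transposase inserts adapters into open chromatin. In skin, EpdSCs were sorted (CD49f high, Ly6A high, and negative for CD31, CD45, CD117, CD140a and CD34) from CD1 males carrying K14rtTA and TRE-myc-Sox9, in which the Krt14 promoter drives the doxycycline (DOX)-dependent activator in skin epithelium. The skin groups were D0 (postnatal day 21, before induction), W1 (day 28), W2 (day 35), W6 (day 63) and W12, and each sample pooled mice. W12 came from neonatal skin of the same genotype grafted onto Nude mice and has no postnatal day, so graft and duration of SOX9 cannot be told apart. From D0 to W6 age rose with time on DOX and no list is from uninduced skin of the later ages. Age and duration of SOX9 cannot be told apart there either. In culture, keratinocytes with K14rtTA carried wild-type SOX9 without DOX (noDOX), or were given DOX at 1 µg/ml, to day 3 by the peak names. The 6 induced arms were WT-SOX9, ΔHMG-SOX9 (lacking the HMG domain that binds DNA), ΔTA-SOX9 (lacking the domain that activates transcription), AFOS (a FLAG-tagged dominant-negative that blocks AP1 factors), SOX9+AFOS, and SOX9+ARID1a (ARID1a belongs to the SWI/SNF complex, which remodels nucleosomes). The SOX9 variants, AFOS and ARID1a were introduced by lentivirus, and in the last pair of arms AFOS or ARID1a was added to cells carrying TRE-myc-Sox9.

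In the hair follicle, a small set of transcription factors maintains stem cell identity. LHX2 is a LIM-homeodomain factor needed to keep HFSCs undifferentiated and in their niche. TCF7L1 and TCF7L2 bind DNA for the WNT pathway, repress its targets in the absence of β-catenin and are expressed in quiescent HFSCs. NFATC1 and FOXC1 maintain HFSC quiescence, TBX1 supports HFSC self-renewal, and the nuclear factor I proteins NFIB and NFIX act together to maintain HFSC enhancers and identity. Enhancers of such genes typically lie far from their promoters, in introns and in flanking intergenic DNA.

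The study merged the 2 samples of each group before peaks were called, so each group is 1 list, no spread between replicates can be given and no difference below was tested. The lists held 49458 to 75956 peaks. Peaks are described by the authors' normalized score, whose normalization is not fully stated in the sources used here. In the 5 skin lists the score is a rescaled significance and not a height: its Spearman correlation with the listed −log10 q was 1.00 in each list, and that with the listed fold enrichment was 0.78 to 0.85. The culture lists have no such columns beside the score, so what it follows there is not known. A score 2-fold higher therefore does not mean that accessibility was 2-fold higher. Every listed peak has a score of at least 3, and the scores of a list summed to between 925672 and 996710. "No peak" therefore means a score under 3, not closed chromatin. The skin lists were not equally strict: the smallest −log10 q in the list came to 14.5 for D0, 9.37 for W1, 4.21 for W2, 5.74 for W6 and 10.1 for W12. Intervals given with shares are 95% Wilson intervals and cover counting error only.

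Some lists go against or qualify their labels. A peak confined to the third exon of Sox9, which a cDNA transgene would carry, scored 13.5 at D0, 15.1 at W2, 9.22 at W6 and 8.84 at W12, and the list labelled W1 had none. In culture it scored 3.71 in the list labelled noDOX, 5.11 in SOX9+AFOS and 3.71 in SOX9+ARID1a, and was absent from those labelled WT-SOX9, ΔHMG-SOX9, ΔTA-SOX9 and AFOS. Peaks confined to exons of Arid1a numbered 12 in SOX9+ARID1a (highest score 38.2), and also 9 in AFOS (8.69) and 7 in SOX9+AFOS (7.86), whereas the remaining 9 lists had at most 1. The peak names of these 3 arms also carry a word (fragments) that those of the other lists lack. As a check of cell type, all 5 epidermal stem cell markers (Krt14, Krt5, Itga6, Itgb4 and Trp63) had a peak at their start in all 12 lists. Of 3 suprabasal markers of differentiated epidermis, Krt10 had a start-site peak in all 12 lists (3.23 to 10.9 in skin and 3.73 to 13.6 in culture), and Krt1 and Lor had none in any. Endothelial (Pecam1, Cdh5) and immune (Ptprc, Cd3e, Cd207) markers had none in any list, nor had Col1a1, Col1a2, Dct and Tyr. Peaks were present at Mitf and Pmel in all 12 lists and at Pdgfra in 10. Of HFSC markers, Cd34, whose product was gated out, had a start-site peak at W6 (score 5.90) and W12 (3.03) and in no other list. Lgr5 had one at W6 (5.73), at W12 (7.73) and in 6 of the 7 culture lists. Krt15 had one at D0 (16.1), W1 (25.7), W2 (9.99) and W12 (11.5) but not at W6, and in culture in noDOX (6.01), WT-SOX9 (6.32) and SOX9+AFOS (4.55). Krt15 thus had its peak before induction, and so had Lhx2, whose values are given with the members' start sites. The share of follicle cells in the sorted populations was not tested, and more cells of a type cannot be told apart from more accessible chromatin per cell.

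The sequences of 7 regions are shown, because they carry the pattern described next: 5 regions with a new peak in both skin at W2 and culture with WT-SOX9, or with an at least 2-fold higher score in both, and 2 regions whose peaks were gone by W2. Regions are named by the distance of their centre, in kb, from the gene's 5′ end, positive in the direction of transcription. Each line gives the central 200 bases on the plus strand of GRCm38, 5′ to 3′, in lower case. Capitals mark exact matches, on either strand, to any of 9 consensus families. For SOX factors the letters searched were ACAATAG and the variant of them that reads ACAATGG. For AP1 factors they were TGACTCA, for the GATA family AGATAA, and for members of the RUNX family TGTGGT. The TCF and LEF factors were searched as CTTTGAA, the nuclear factor I proteins as TTGGCA, the homeodomain factors of the LHX family as TAATTA, forkhead (FOX) factors as TGTTTAC and the T-box (TBX) factors as AGGTGTGA. A match is a description of the letters and no evidence of binding.
Tcf7l2 +38.0 kb, chr19:55779766-55779965: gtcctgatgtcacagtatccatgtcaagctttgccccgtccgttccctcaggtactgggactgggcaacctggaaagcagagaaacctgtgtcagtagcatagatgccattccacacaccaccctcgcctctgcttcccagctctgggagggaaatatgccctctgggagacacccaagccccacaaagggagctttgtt
Tcf7l2 +46.7 kb, chr19:55788457-55788656: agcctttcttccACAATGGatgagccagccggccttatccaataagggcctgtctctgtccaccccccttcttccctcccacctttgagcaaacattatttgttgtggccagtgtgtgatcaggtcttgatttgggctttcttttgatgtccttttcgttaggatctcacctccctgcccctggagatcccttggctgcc
Nfib +422.0 kb, chr4:82283603-82283802: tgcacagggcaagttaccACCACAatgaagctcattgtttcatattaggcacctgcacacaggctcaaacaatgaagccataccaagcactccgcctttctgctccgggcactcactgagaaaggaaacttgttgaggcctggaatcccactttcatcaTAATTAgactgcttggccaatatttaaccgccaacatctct
Nfib −50.2 kb, chr4:82755885-82756084: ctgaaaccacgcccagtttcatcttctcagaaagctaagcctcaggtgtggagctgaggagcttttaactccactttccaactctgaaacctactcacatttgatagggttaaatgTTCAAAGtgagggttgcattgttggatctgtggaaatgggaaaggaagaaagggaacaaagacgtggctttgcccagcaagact
Nfix +71.7 kb, chr8:84728590-84728789: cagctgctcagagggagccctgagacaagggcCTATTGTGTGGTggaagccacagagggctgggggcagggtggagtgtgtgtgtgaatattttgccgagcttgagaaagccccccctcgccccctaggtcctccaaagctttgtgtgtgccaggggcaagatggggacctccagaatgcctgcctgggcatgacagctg
Lhx2 −38.1 kb, chr2:38301031-38301230: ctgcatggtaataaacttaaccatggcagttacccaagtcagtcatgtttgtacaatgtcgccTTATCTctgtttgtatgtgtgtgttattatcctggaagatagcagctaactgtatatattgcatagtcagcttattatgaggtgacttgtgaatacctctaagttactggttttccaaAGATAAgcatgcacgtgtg
Nfib +185.0 kb, chr4:82520636-82520835: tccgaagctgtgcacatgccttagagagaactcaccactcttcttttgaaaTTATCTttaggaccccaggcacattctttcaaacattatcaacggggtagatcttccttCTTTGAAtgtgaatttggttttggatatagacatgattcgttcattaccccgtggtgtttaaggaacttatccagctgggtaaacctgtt
The Tcf7l2 +46.7 kb and Nfix +71.7 kb sequences each hold a SOX match, the latter sharing 1 base with a RUNX match. Nfib −50.2 kb holds a TCF/LEF match, Nfib +422.0 kb a RUNX and an LHX match, and Tcf7l2 +38.0 kb none of the 9. The lost regions hold 2 GATA matches at Lhx2 and a GATA and a TCF/LEF match at Nfib. They are the only 2 of the 14 lost regions of the windows with a GATA match (14.3%, against 23.1% of all lost regions).

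Regions whose peak was new both in skin and in culture, absent at both starting points, lay at Tcf7l2, Nfib and Nfix, and the Tcf7l2 and Nfib windows (292 and 516 kb) are long. Regions without a peak at D0 and in noDOX but with one at W2 numbered 29 in the 8 windows, and 9 of them (31.0%, interval 17.3 to 49.2%) also had a peak with WT-SOX9. Across the genome this held for 21.2% of such regions, which lies inside the interval. The count was 4 of 10 with the q minimum of the strictest skin list, 5 of 24 when peaks had to cover at least 0.5 of a region and 14 of 40 with windows of 100 kb. Of the 9, 4 were at Tcf7l2, 4 at Nfib and 1 at Nfix. Among 47 regions with peaks in all of D0, W2, noDOX and WT-SOX9, 3 (6.38%, interval 2.19 to 17.2%) scored at least 2-fold higher in both W2 over D0 and WT-SOX9 over noDOX, against 1.36% of all such regions. Of these 3, 2 were at Tcf7l2 and 1 at Nfib. By fold enrichment, the measure of peak height that the skin lists hold, the rise from D0 to W2 at these 3 was smaller: from 7.50 to 12.1 at Tcf7l2 +38.0 kb, from 7.58 to 11.9 at Tcf7l2 +12.6 kb and from 12.8 to 18.2 at Nfib +422.0 kb. These ratios of 1.61, 1.57 and 1.42 are below 2-fold, and 2.23%, 2.50% and 4.37% of all regions with peaks at both times had a ratio as large.

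At Tcf7l2, the region 38.0 kb into the gene (chr19:55779383-55780349, intron) scored 6.73 at D0, 4.87 at W1 and 58.5 at W2, then 36.4 at W6 and 19.9 at W12. In culture it scored 3.35 in noDOX, 30.5 with WT-SOX9, 54.9 with SOX9+AFOS and 24.7 with SOX9+ARID1a, with no peak in the other 3 arms. The difference was 3.12 on the log2 scale for W2 over D0 and 3.19 for WT-SOX9 over noDOX. Thus a low-scoring peak of uninduced cells had the highest score of the Tcf7l2 window in the W2 list. The intronic region at +12.6 kb had the same order in skin but not in culture, where SOX9+ARID1a was above WT-SOX9, with 10.8, 6.34, 40.6, 22.2 and 18.7 from D0 to W12 and 4.71 in noDOX, 18.5 with WT-SOX9, 30.8 with SOX9+AFOS and 21 with SOX9+ARID1a. The region at +46.7 kb (chr19:55788287-55788827, intron) had no peak at D0, W1 or in noDOX and scored 30.7 at W2, 22.3 at W6, 11.2 at W12, 31.8 with WT-SOX9, 27.4 with SOX9+AFOS and 19.9 with SOX9+ARID1a. Upstream of the gene, the region at −30.8 kb was likewise without a peak before W2 and scored 15.4 at W2, 23.1 at W6, 10.6 at W12, 10.5 with WT-SOX9, 26.2 with SOX9+AFOS and 3.12 with SOX9+ARID1a. Regions at +96.3 and +134.8 kb scored lower, with 4.59 and 6.48 at W2 and 6.01 and 4.98 with WT-SOX9. The latter had a peak of 4.91 at W1 already.

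At Nfib, the region at +422.0 kb (chr4:82283397-82284009), which lies past the 3′ end of the gene, scored 15.3 at D0, 7.68 at W1 and 72.7 at W2, then 53.4 at W6 and 52.5 at W12. It scored 14.1 in noDOX, 32.6 with WT-SOX9, 74.4 with SOX9+AFOS and 45.9 with SOX9+ARID1a. The log2 differences were 2.25 for W2 over D0 and 1.21 for WT-SOX9 over noDOX. The region at −50.2 kb (chr4:82755443-82756526), which only overlaps the window's edge, had no peak at D0, W1 or in noDOX. It scored 5.85 at W2, 18.6 at W6, 9.96 at W12, 61.9 with WT-SOX9, 27.9 with SOX9+AFOS and 21.4 with SOX9+ARID1a. A region over a coding exon at +322.0 kb (chr4:82383352-82384075) scored 9.68, 9.14 and 3.15 from W2 to W12, 24.9 with WT-SOX9, 49.5 with SOX9+AFOS and 10.6 with SOX9+ARID1a. The intronic region at +138.7 kb, which holds an AP1 match, scored 15.4 at W2, 22.5 at W6, 9.20 at W12 and 15.4 with WT-SOX9, and had no peak in either SOX9+AFOS or SOX9+ARID1a. The last Nfib region of this kind, at +241.2 kb, stayed between 3.04 and 3.76 in the lists that had it (W2, WT-SOX9 and SOX9+AFOS). At Nfix, the intronic region at +71.7 kb (chr8:84728376-84729003) scored 5.44, 5.97 and 7.20 at W2, W6 and W12, 13.6 with WT-SOX9, 23.7 with SOX9+AFOS and 16.5 with SOX9+ARID1a.

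The plot of these 12 regions by list shows peaks at W1 for 4 of them (33.3%, interval 13.8 to 60.9%, against 16.8% of all regions chosen by the same rule), namely the 3 that had a peak at D0 by the rule and Tcf7l2 +134.8 kb. Peaks were present at W6 for 11 of them (against 88.5%) and at W12 for 10 (against 77.7%). In culture, 11 had a peak with SOX9+AFOS (91.7%, interval 64.6 to 98.5%, against 56.9%) and 10 with SOX9+ARID1a (83.3%, interval 55.2 to 95.3%, against 62.9%). ΔHMG-SOX9, ΔTA-SOX9 and AFOS had no peak at any of the 12, against 16.9%, 16.8% and 20.5% of all such regions, values which lie below the upper limit of 24.2% that 0 of 12 allows by the Wilson interval. The regions were chosen on the D0, W2, noDOX and WT-SOX9 lists, and the other 8 took no part in the choice. The 12 leave out 6 mixed regions, with a new peak in one system and an at least 2-fold higher score in the other: 2 at Tcf7l1, 2 at Nfatc1, 1 at Nfib and 1 at Nfix. At Nfatc1 −5.5 kb, for example, the score was 3.52 at D0 and 18.7 at W2, with no peak in noDOX and 5.02 with WT-SOX9. Over all 18, peaks were present at 5 with ΔHMG-SOX9 (27.8%, against 22.8% of all regions that moved up in both systems), at 4 with ΔTA-SOX9 (22.2%, against 21.3%) and at 2 with AFOS (11.1%, interval 3.10 to 32.8%, against 27.1%). The absence of peaks in these 3 arms thus holds for the 12 and not for the 18.

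**Figure D1:**
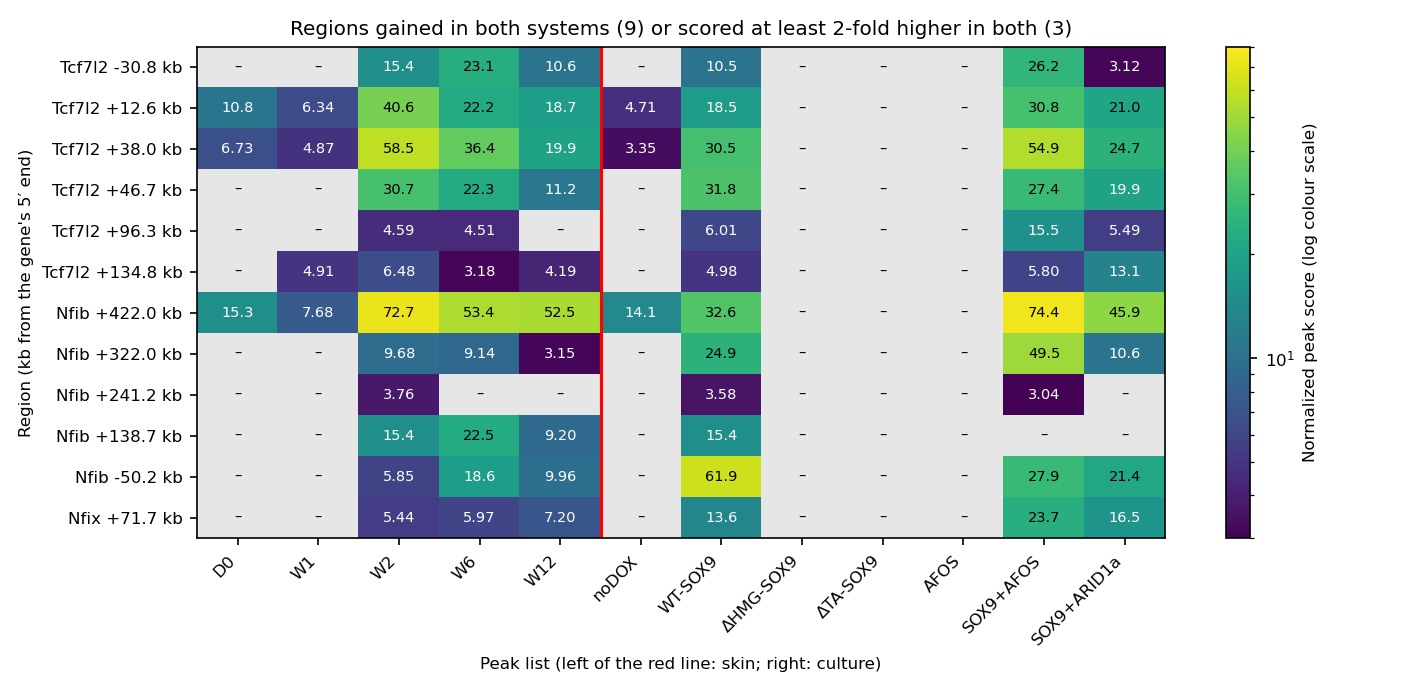
Normalized peak score in each of the 12 peak lists (columns) for 12 regions (rows): the 9 that were gained both in skin at W2 and in culture with WT-SOX9, and the 3 that had peaks in D0 and noDOX and scored at least 2-fold higher in both; each cell prints its score, and a dash marks a list without a peak. ΔHMG-SOX9, ΔTA-SOX9 and AFOS have no peak in any row, and the W2 score of Tcf7l2 +38.0 kb is 58.5 against 6.73 at D0.

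Where member regions moved in both systems, skin and culture nearly always moved the same way. A region was counted as moved when its peak was gained or lost or its score differed at least 2-fold, D0 to W2 in skin and noDOX to WT-SOX9 in culture. Of 23 member regions that moved in both, 22 (95.7%, interval 79.0 to 99.2%) moved in the same direction, against 68.5% of all such regions: 18 upwards and 4 downwards. This measure was chosen after the values had been seen, and neighbouring regions of a gene are not independent. With a score of at least 5 it was 15 of 18 (83.3%, against 69.4%), and by presence alone 13 of 13 (against 72.4%). Of the 52 member regions that moved up in skin, 18 moved up in culture (34.6%, interval 23.2 to 48.2%), against 18.2% of all regions that moved up in skin, and 1 moved down (1.92%), against 12.3%. The exception was the Nfatc1 region at +68.9 kb. Of the member regions that moved down in skin, 4 moved down in culture, 29 moved neither way and none moved up. Over all regions that moved down in skin, 2615 moved down in culture, 11321 neither way and 383 up.

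Taken over the 8 windows, most shares of regions gained and lost in skin were close to those across the genome. Of 222 skin regions, 76 (34.2%, interval 28.3 to 40.7%) had a peak in all 5 skin lists, against 37.8% of all skin regions. In 17 regions a peak was missing from D0 and W1 and called in each of W2, W6 and W12 (7.66%, interval 4.84 to 11.9%), against 7.99%. Without the list labelled W1 in that definition there were 22, and without W12 there were 20. Peaks present at D0 and absent from W2 onwards were found at 14 (6.31%), against 5.59%, and peaks that appeared after W2, at W6 and W12, at 12 (5.41%), against 6.89%. From W1 to W2, 43 of 91 absent regions gained a peak (47.3%, against 43.4%) and 34 of 131 present regions lost theirs (26.0%, against 25.0%). Each of these background values lies inside the members' interval. With the q minimum of the strictest skin list applied to all 5, the lost regions numbered 35 of 172 (20.3%, against 14.6%) and the gained ones 11 (6.40%, against 3.76%). Those appearing after W2 numbered 6 with that q minimum (3.49%, against 5.63%), and also 6 with a score of at least 5 and with lists of equal length.

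The gained and lost regions are given by gene with the number of its skin regions, since windows differ in length. Nfib held 5 of the 17 gained and 6 of the 14 lost among 61 skin regions, Tcf7l2 3 and 3 of 30, Tcf7l1 3 and none of 26, and Nfix 2 and 1 of 35. Tbx1 held 2 gained and no lost among 15, Nfatc1 1 and 1 of 30, Foxc1 1 and 1 of 16, and Lhx2 none and 2 of 9. Among the 21911 windows of protein-coding genes, 0.972% held at least 5 gained regions and 0.210% at least 6 lost regions, but windows differ in length and that of Nfib is long. Of the 17 gained regions, 11 were intronic and 5 intergenic, and of the 14 lost ones 9 were intronic. Of 99 regions with a peak at both times, 14 scored at least 2-fold higher at W2 than at D0 (14.1%, interval 8.61 to 22.3%, against 11.3% of all) and 7 at least 2-fold lower (7.07%, interval 3.47 to 13.9%, against 8.36%), and both intervals hold the background. The median log2 difference of the score was 0.09, against −0.01 over all regions. By fold enrichment none of the 99 was at least 2-fold higher at W2 (highest ratio 1.93, against 0.649% of all regions past 2-fold) and 3 were at least 2-fold lower (3.03%, against 4.01%). The median ratio was 0.848, against 0.865.

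Culture differed from skin in which member regions had a listed peak. Of the 76 regions with a peak in all 5 skin lists, 23 (30.3%, interval 21.1 to 41.3%) had none in any of the 7 culture lists, against 16.3% of all such regions. Examples, chosen after their values were seen, were intronic regions of Tcf7l2 at +139.2 kb (24.0 at D0, 25.1 at W1 and 10.3 at W2, then 16.0 at W6 and 17.9 at W12) and of Nfib at +111.4 kb (27.3, 20.6, 20.6, 18.3 and 17.4). These peaks were thus present in EpdSCs before induction and stayed present through W12 in the grafts.

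Regions opened in culture are those with a peak in an induced arm and none in noDOX. Of 81 member regions with a culture peak but none in noDOX, 44 (54.3%, interval 43.5 to 64.7%) had one with SOX9+AFOS, against 31.3% of all such regions. WT-SOX9 opened 27 (33.3%, against 31.4%), SOX9+ARID1a 28 (34.6%, against 28.8%), ΔTA-SOX9 24 (29.6%, against 32.1%), AFOS 20 (24.7%, against 34.6%) and ΔHMG-SOX9 16 (19.8%, against 17.7%). Set against the AFOS list, which carries the same word in its peak names, in place of noDOX, SOX9+AFOS had a peak at 56 of 85 regions (65.9%), against 39.4% of all. The part of the Arid1a exon peaks in this difference was not tested. SOX9+AFOS cells carried TRE-myc-Sox9, whereas SOX9 of the noDOX and WT-SOX9 cells came by lentivirus. The arm thus cannot be told apart from its cells. By gene, SOX9+AFOS opened 9 regions at Tcf7l2, 9 at Nfib, 7 at Nfix, 7 at Tbx1, 6 at Tcf7l1, 3 at Nfatc1, 2 at Foxc1 and 1 at Lhx2.

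Closed regions are those with a noDOX peak and none in the arm. Of 82 member regions with a noDOX peak, 12 (14.6%, interval 8.57 to 23.9%) had none with WT-SOX9, against 27.9% of all. The shares closed were 18.3% with ΔHMG-SOX9 (15 regions, against 18.5%), 29.3% with ΔTA-SOX9 (24, against 19.2%), 29.3% with AFOS (24, against 17.3%), 23.2% with SOX9+AFOS (19, against 34.9%) and 22.0% with SOX9+ARID1a (18, against 20.5%). For ΔTA-SOX9 and AFOS the background lies just below the members' interval (20.5 to 39.9% in both arms), and for SOX9+AFOS just above it (15.4 to 33.4%). Among 70 regions with a peak in both, 8 scored at least 2-fold higher with WT-SOX9 than in noDOX (11.4%, against 6.04%) and 9 at least 2-fold lower (12.9%, against 19.6%). The median log2 difference was −0.02, against −0.13 over all regions.

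**Figure D2:**
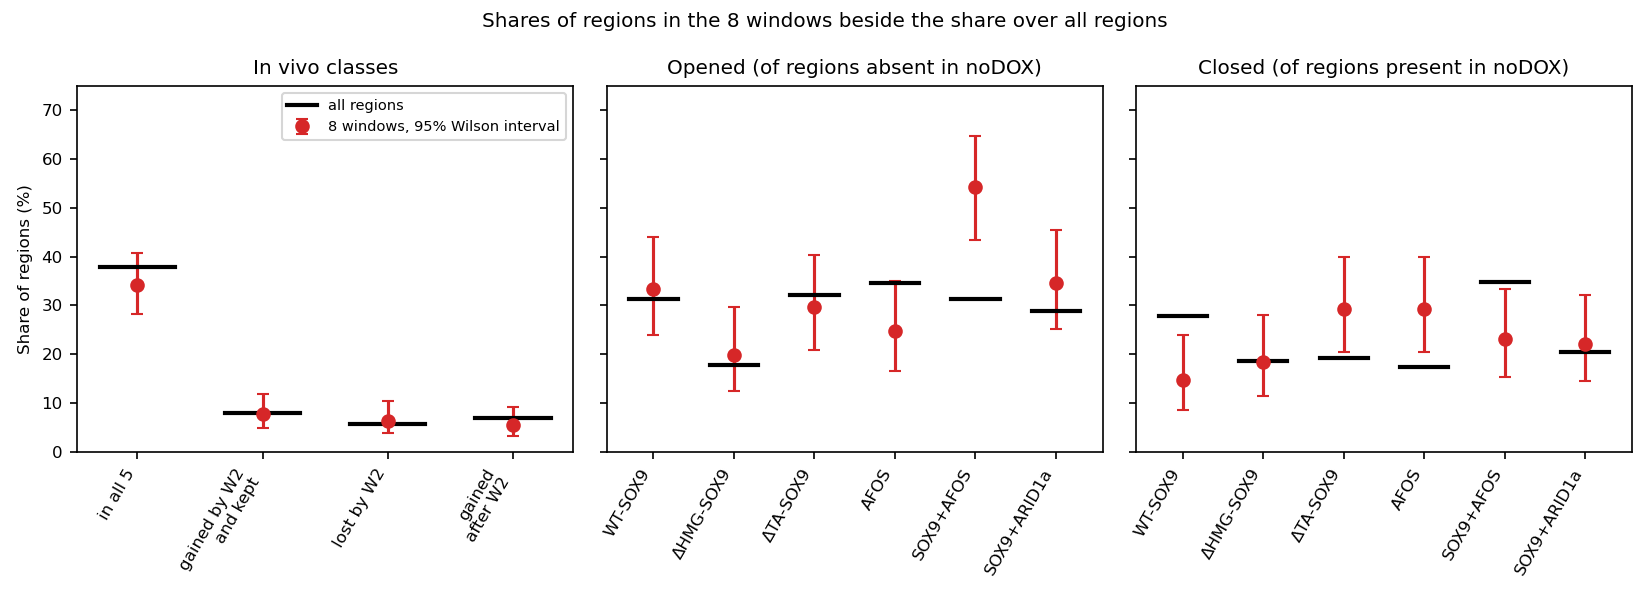
Percent of member regions called in each comparison (red points, with 95% Wilson intervals for counting error) beside the percent of all regions of the series called by the same rule (black lines). The points for SOX9+AFOS opened (54.3%) and WT-SOX9 closed (14.6%) lie clear of their backgrounds of 31.3% and 27.9%.

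The 27 regions opened by WT-SOX9 were followed in the other arms. With ΔHMG-SOX9 4 had a peak (14.8%, interval 5.92 to 32.5%) and with ΔTA-SOX9 6 (22.2%, interval 10.6 to 40.8%), and the 11.3% and 11.5% of all regions opened by WT-SOX9 lie inside these intervals. With AFOS alone 3 did (11.1%, against 16.4%), with SOX9+AFOS 20 (74.1%, interval 55.3 to 86.8%, against 34.3%) and with SOX9+ARID1a 15 (55.6%, against 39.2%). Peaks in both SOX9+AFOS and SOX9+ARID1a and in none of ΔHMG-SOX9, ΔTA-SOX9 and AFOS were found at 13 of the 27 (48.1%, interval 30.7 to 66.0%), against 16.8% of all. These comparisons share the noDOX and WT-SOX9 lists. Of the 12 regions closed with WT-SOX9, 5 also had no peak with ΔHMG-SOX9 (41.7%, against 42.2% of all regions closed with WT-SOX9), 9 with SOX9+AFOS (75%, against 74.5%) and 6 with SOX9+ARID1a (50%, against 43.3%). With ΔTA-SOX9 and with AFOS 8 had none (66.7% in both, interval 39.1 to 86.2%), against 37.8% and 37.0%.

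Scores were also summed over each window. A region under a score of 3 enters such a sum as 0, so sums move with the number of peaks called, and their ratios are not fold changes of accessibility. The Tcf7l2 sums from D0 to W12 were 233, 229, 303, 282 and 238, and in culture 142 in noDOX, 251 with WT-SOX9, 129 with ΔHMG-SOX9, 104 with ΔTA-SOX9, 126 with AFOS, 250 with SOX9+AFOS and 229 with SOX9+ARID1a. The 3 arms with full-length SOX9 were thus above noDOX and the 3 without it below. At Nfib the skin sums were 341, 376, 482, 430 and 323 from D0 to W12. In culture Nfib summed to 119 in noDOX, 268 with WT-SOX9, 304 with SOX9+AFOS and 163 with SOX9+ARID1a, against 106, 121 and 99.3 with ΔHMG-SOX9, ΔTA-SOX9 and AFOS. Peaks at Tcf7l2 numbered 9 in noDOX and 15 with WT-SOX9, covered 5.37 and 7.98 kb and had mean scores of 15.8 and 16.7, so there the sum rose with the number of peaks. At Nfib 10 peaks covered 7.44 kb in noDOX with a mean score of 11.9, and 16 peaks covered 10.1 kb with WT-SOX9 with a mean of 16.7.

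The Foxc1 window summed to 33.4 at D0, 37.1 at W1 and 72.2 at W2, then 89.6 at W6 and 58.2 at W12. It held 4 peaks over 1.98 kb at D0 (mean score 8.36), 5 over 2.57 kb at W2 (14.4) and 11 over 5.02 kb at W6 (8.14). The W6 list, where the sum was highest, is also the longest list of the series. The Lhx2 window fell short of its D0 sum at every later time, with 67.8, 63, 55.8, 51.6 and 55.2. Its culture sums were 11.5 in noDOX, 24.4 with WT-SOX9, 19.9 with ΔHMG-SOX9, 49.3 with ΔTA-SOX9, 12 with AFOS, 29.1 with SOX9+AFOS and 27.8 with SOX9+ARID1a, so its highest culture sum was that of ΔTA-SOX9. The sum came from 5 peaks over 2.33 kb (mean score 9.86) with ΔTA-SOX9 and from 2 over 0.646 kb (5.73) in noDOX. The Nfatc1 sum was 236 at D0 and 347 at W2 in skin, and in culture 217 in noDOX and 183 with WT-SOX9. Nfix had its highest culture sum with SOX9+AFOS (564, against 362 in noDOX), and Tbx1 its lowest with ΔTA-SOX9 (43.9, against 115). Tcf7l1 stayed between 197 and 290 in skin and between 200 and 317 in culture.

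These sums were set against those of all protein-coding gene windows with peaks in both lists of a comparison. From D0 to W2, a relative rise as large as that of Foxc1 was found in 3.12% of windows, of Nfatc1 in 10.7%, of Nfib in 12.2% and of Tcf7l2 in 16.5%. The ratio of Tcf7l1 was reached or exceeded by 19.4% of windows, that of Nfix by 30.8%, of Tbx1 by 67.4% and of Lhx2 by 80.1%. For WT-SOX9 over noDOX the share was 2.48% for Nfib, 2.91% for Lhx2, 5.04% for Tcf7l2 and 7.86% for Foxc1. It was 52.0% for Nfix, 54.1% for Tbx1, 62.4% for Tcf7l1 and 76.3% for Nfatc1. The Lhx2 ratio rests on 2 peaks in noDOX and 3 with WT-SOX9, and with ΔHMG-SOX9 the Lhx2 share was 2.23%. For ΔTA-SOX9 at Lhx2 it was 0.622%, and for SOX9+AFOS at Nfix 12.9%. At Tbx1 the ratio of ΔTA-SOX9 to noDOX was reached or exceeded by 99.1% of windows.

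**Figure D3:**
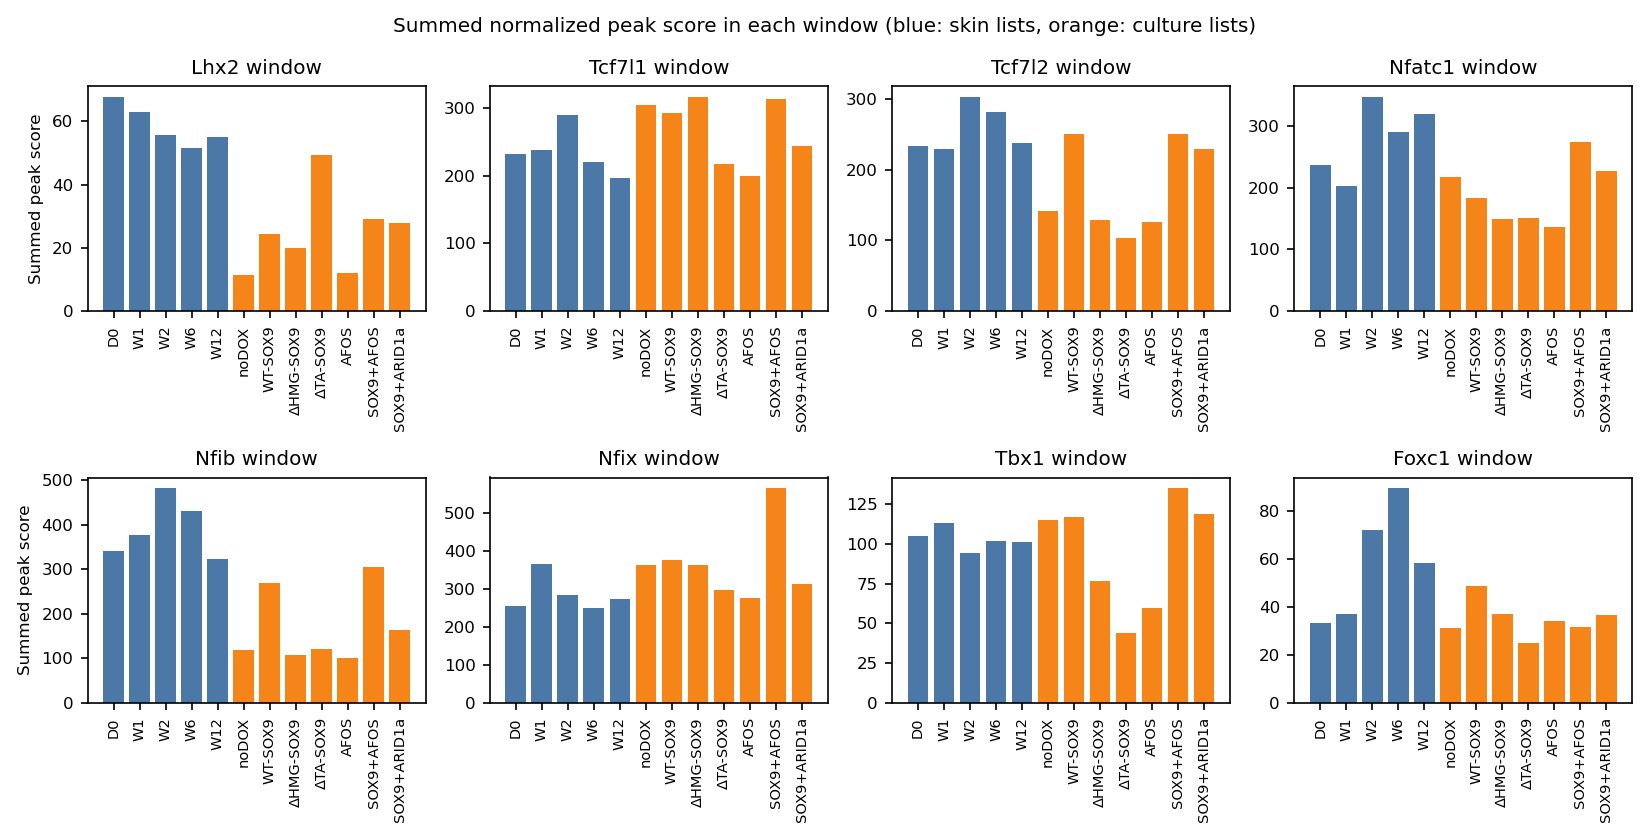
Summed normalized peak score in the gene body ± 50 kb window of each of the 8 genes (panels) in the 5 skin and the 7 culture peak lists; each bar is 1 list made from 2 merged samples, so there are no error bars, and the axes of the panels differ. Tcf7l2 and Nfib are highest in culture in the WT-SOX9, SOX9+AFOS and SOX9+ARID1a lists, and Lhx2 in the ΔTA-SOX9 list (49.3).

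All 8 members had a peak over an annotated start site in some lists. For Tcf7l1 the start-site peak scored 9.94 at D0, 9.45 at W1 and 16.8 at W2, then 17.1 at W6 and 21.4 at W12, and from 59.7 in noDOX down to 11.5 with SOX9+ARID1a in culture (46.6 with WT-SOX9). For Tcf7l2 it scored 19.8, 25.3, 11.7, 12.8 and 15.4 in skin, and 24.0 in noDOX, 37.5 with WT-SOX9, 14.1 with ΔHMG-SOX9, 9.38 with ΔTA-SOX9, 10.6 with AFOS, 26.6 with SOX9+AFOS and 8.75 with SOX9+ARID1a. A second Tcf7l2 start site, at +153.7 kb, scored 5.37, 9.09, 5.85, 6.07 and 4.42 in skin and had no peak in culture. Foxc1 scored 7.67 at D0, 17.5 at W1 and 15.1 at W2, then 17.9 at W6 and 10.8 at W12, and 17.3 in noDOX and 34.3 with WT-SOX9. At Lhx2 a start-site peak 11.6 kb into the gene scored 21.1, 25.0, 13.3, 12.9 and 15.3 in skin, and in culture it was called in noDOX (4.76), WT-SOX9 (5.38) and ΔTA-SOX9 (5.89) and in no other arm. Taken at the exact base of that start, the W2 and culture lists have no peak. At the outermost Lhx2 start, a peak of 3.30 was present at D0 only. Nfatc1 scored 11.7, 8.64, 5.63, 10.7 and 9.40 at its upstream start and in culture had a peak in noDOX (9.29), WT-SOX9 (5.11) and SOX9+AFOS (12.3) but not with ΔHMG-SOX9, ΔTA-SOX9, AFOS or SOX9+ARID1a. At its second start, +5.0 kb, all 7 culture lists had a peak, with 17.9 in noDOX, 21.8 with WT-SOX9, a value between these with ΔHMG-SOX9, 14.1 with ΔTA-SOX9, 11.2 with AFOS, 8.02 with SOX9+AFOS and 5.58 with SOX9+ARID1a. In skin that start scored 7.26 at D0 and 12.3 at W1, had no peak at W2, and scored 5.39 at W6 and 3.88 at W12. Tbx1 stayed between 4.77 and 8.57 in skin and between 5.21 and 10.3 in 5 culture lists, with no peak in SOX9+AFOS and SOX9+ARID1a, and a second start at +3.9 kb had a peak with ΔHMG-SOX9 only (3.10). Nfix had a start-site peak at W1 (9.60) and W2 (4.24) among the skin lists and in 4 culture lists (3.01 to 8.75), and Nfib had one only at an internal start, +200.2 kb, with 6.25 to 11.7 in skin and 7.14 to 14.3 in culture.

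**Figure D4:**
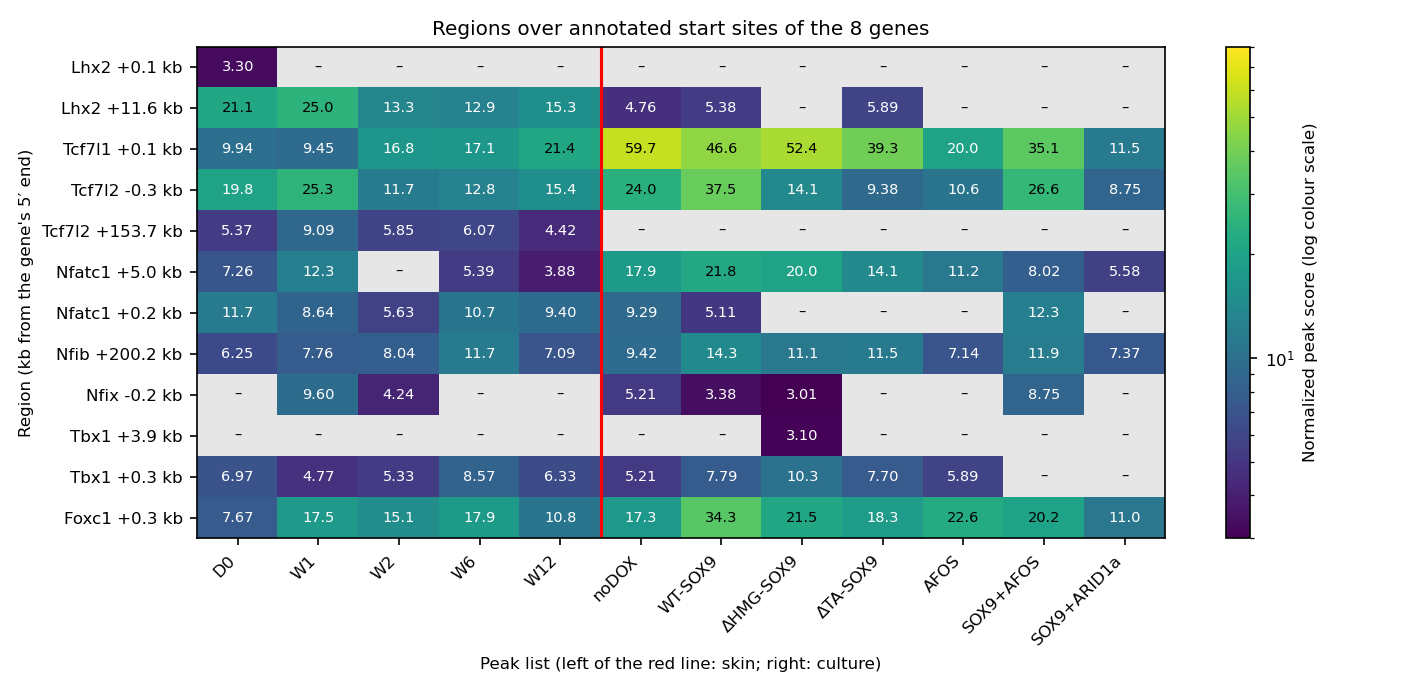
Normalized peak score over the members' annotated start sites (rows, named by distance from the gene's 5′ end) in the 12 peak lists (columns, skin left of the red line and culture right of it); colour is on a log scale and a dash marks a list without a peak. The Tcf7l1 start site scores 9.94 to 21.4 in skin and up to 59.7 in culture (noDOX).

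LHX2, the LIM-homeodomain factor, had 12 regions (chr2:38339281-38369733, plus strand), of which 4 of its 9 skin regions were present in all 5 skin lists. None was gained by W2 and kept. The region at +38.0 kb, past the 3′ end, scored 7.81, 7.85, 14.3, 8.96 and 16.7 from D0 to W12. In culture it had no peak in noDOX, 11.4 with WT-SOX9, 24.9 with SOX9+AFOS, 27.8 with SOX9+ARID1a and none with ΔHMG-SOX9, ΔTA-SOX9 or AFOS. It was the only Lhx2 region opened by WT-SOX9. The 2 lost regions had low scores: the −38.1 kb region scored 3.14 at D0 and 4.56 at W1. A region that appeared after W2, at +39.2 kb, scored 3.41 at W6 and 5.87 at W12, and in culture 3.83 with ΔHMG-SOX9, 11.3 with ΔTA-SOX9 and 4.93 with AFOS. The high sum of ΔTA-SOX9 came largely from that region and from upstream regions at −34.0 kb (16.2) and −17.9 kb (9.83), chosen after their values were seen. Neither upstream region had a peak in any skin list, in noDOX or with WT-SOX9.

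Of the TCF genes, Tcf7l1 (chr6:72626378-72789254, minus strand) gained 3 intronic regions near its 3′ end, at +138.6, +132.9 and +129.1 kb. The first scored 26.7 at W2, 18.4 at W6 and 17.4 at W12, with no peak at D0 and W1. The cultured cells had a peak there before DOX (6.74 in noDOX, 27.0 with WT-SOX9, 14.5 with ΔHMG-SOX9, 10.3 with ΔTA-SOX9, 11.6 with AFOS, 3.10 with SOX9+AFOS and 21.6 with SOX9+ARID1a), and so they had at the other 2. The +132.9 kb region went from 4.15 in noDOX to 18.4 with WT-SOX9 and 45.0 with SOX9+AFOS. Upstream, the region at −14.5 kb had the highest noDOX score of the regions closed at Tcf7l1, 16.1, with no peak in WT-SOX9 or SOX9+AFOS, and stayed present in skin (7.80, 23.0, 9.90, 5.67 and 6.40). The highest opened region of the window, with 15.2 at WT-SOX9, lay in a non-coding exon of the neighbouring gene Retsat. A region at −3.5 kb, chosen after its values were seen, scored 19.5 at D0, 22.5 at W1 and 6.91 at W2 and had no peak at W6, W12 or in culture.

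Tcf7l2 (chr19:55741820-55933654, plus strand) had 7 regions opened by WT-SOX9 and 1 closed. Besides the shared regions, an intronic region at +15.2 kb, chosen after its values were seen, scored 21.8 with WT-SOX9, 3.30 with SOX9+AFOS and 7.17 with SOX9+ARID1a, without a peak in any skin list. The closed region, over a coding exon at +1.0 kb, scored 3.83 in noDOX, 7.34 with ΔHMG-SOX9 and 3.58 with ΔTA-SOX9. The 3 lost regions lay at +31.1, +133.7 and +213.4 kb, the highest of them at +133.7 kb with 12.2 at D0 and 9.20 at W1. It lies next to the region opened at +134.8 kb. An upstream region at −29.1 kb ran the other way in the 2 systems: it appeared after W2 in skin (8.0 at W6 and 5.75 at W12), and in culture it scored 28.3 in noDOX, 22.3 with ΔHMG-SOX9, 18.8 with ΔTA-SOX9, 25.6 with AFOS and 15.7 with SOX9+ARID1a but 6.80 with WT-SOX9, with no peak with SOX9+AFOS.

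Of the NFI genes, Nfib (chr4:82290173-82705750, minus strand) had 61 skin regions, 15 of them in all 5 lists. The 6 lost regions lay within the gene, at +62.1, +116.0, +132.9, +174.2, +185.0 and +185.6 kb, all intronic. The highest, at +185.0 kb, scored 8.92 at D0 and 11.1 at W1, and none of the 6 had a D0 score above it. Of the 5 gained regions, 2 lay past the 3′ end, at +461.8 kb (25.9 at W2, 16.2 at W6 and 5.97 at W12) and +433.0 kb (16.2, 15.7 and 8.21), which no culture list had. Between them, a region at +442.5 kb appeared after W2, with 15.2 at W6 and 6.68 at W12. WT-SOX9 closed 2 Nfib regions, at +336.1 and +162.5 kb, each with 3.79 in noDOX. The second scored higher in skin at every time, at 29.5, 32.5, 25.8, 17.4 and 20.1. Nfix (chr8:84699876-84800344, minus strand) had 16 of 35 skin regions in all 5 lists, 2 gained, 1 lost and none that appeared after W2. Its lost region, at +140.1 kb beside Ier2, scored 8.36 at D0 and 4.14 at W1, and in culture 7.53 with ΔHMG-SOX9, 8.63 with ΔTA-SOX9 and 9.03 with AFOS but had no peak in the 3 arms with full-length SOX9 or in noDOX. The closed region, at +132.1 kb, scored 3.44 in noDOX. In the Nfix window the start site of Calr (47.9 to 78.7 in skin) scored higher than that of Nfix, so its window sum rests in part on neighbours.

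**Figure D5:**
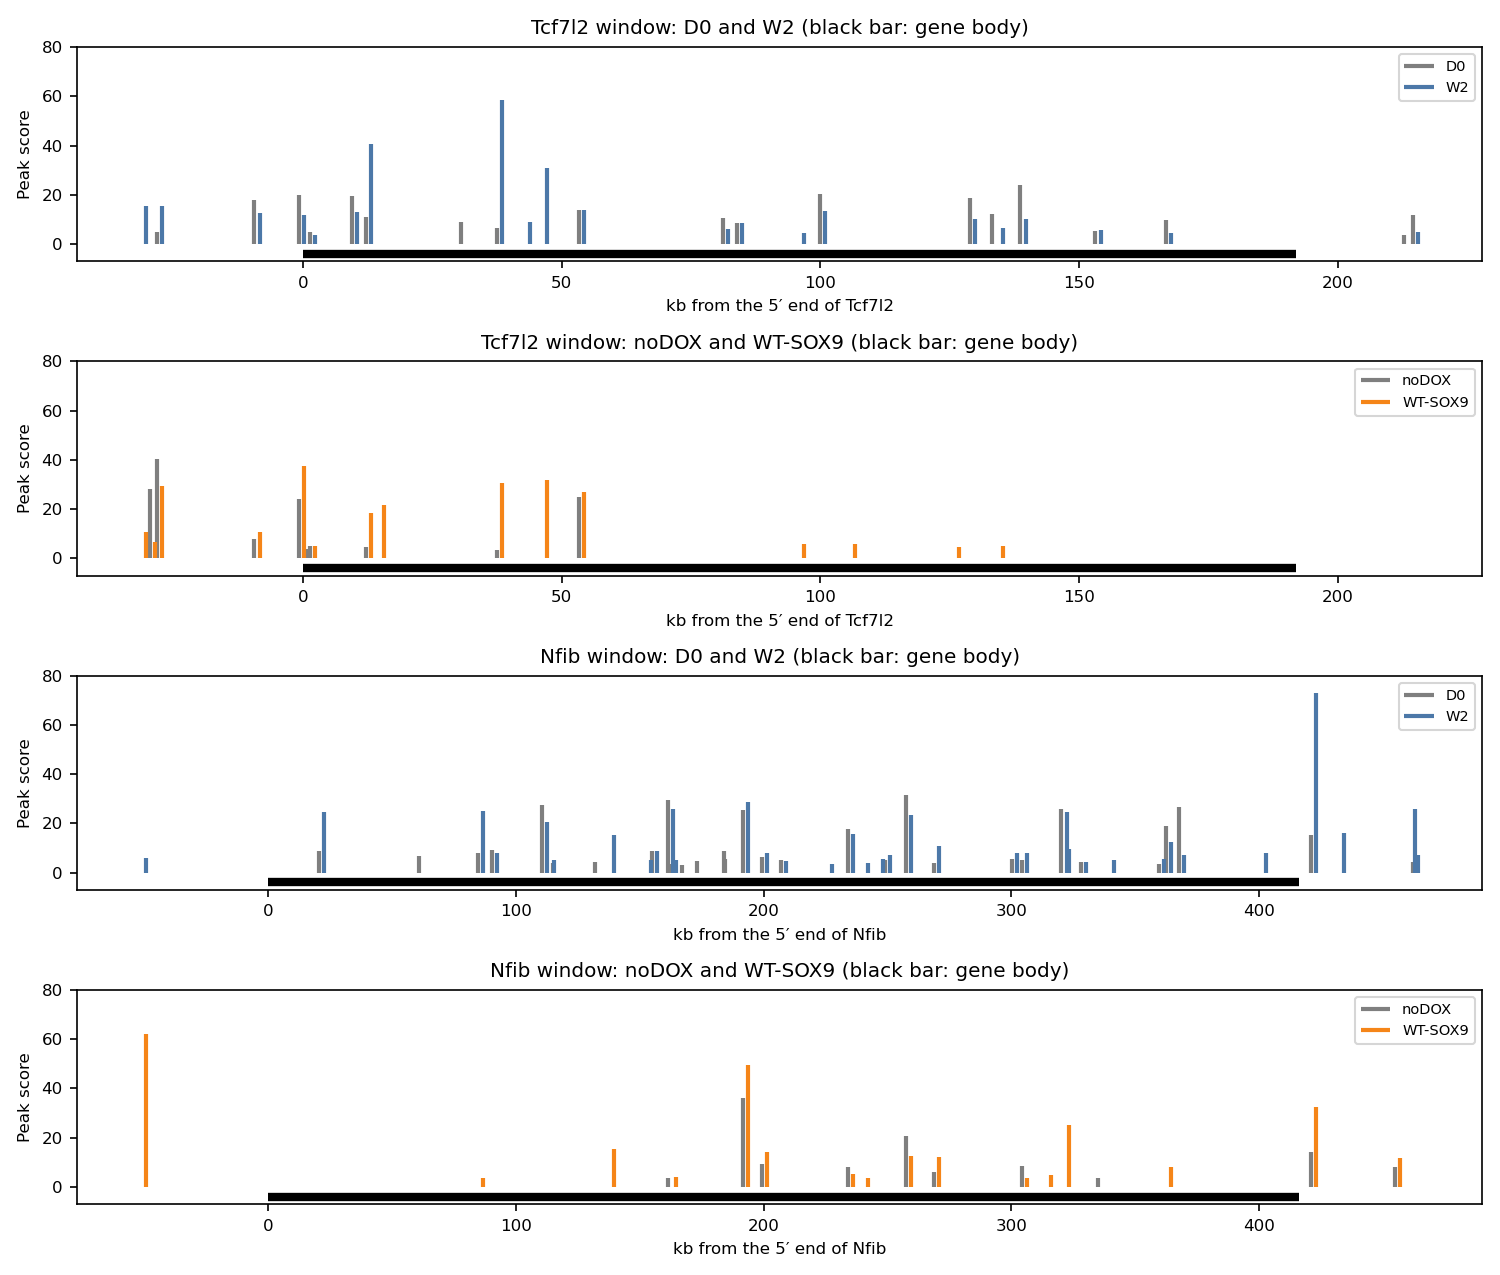
Normalized peak score against distance from the gene's 5′ end (kb, in the direction of transcription) for Tcf7l2 and Nfib, with D0 and W2 above and noDOX and WT-SOX9 below; paired lines are shifted slightly apart so both can be seen. The highest W2 scores are at +38.0 kb of Tcf7l2 (58.5) and at +422.0 kb of Nfib (72.7).

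NFATC1, a calcium-regulated factor of quiescent HFSCs, had 35 regions (chr18:80606205-80713071, minus strand), 12 of 30 skin regions being present in all 5 lists. Its gained region, at +58.7 kb, scored 16.4 at W2, 9.44 at W6 and 5.70 at W12, and had a culture peak without DOX (14.4 in noDOX, 41.2 with WT-SOX9, 16.9 with ΔHMG-SOX9, 4.68 with ΔTA-SOX9, 17.7 with AFOS, 17.7 with SOX9+AFOS and 18.0 with SOX9+ARID1a). Skin and culture were opposite at +68.9 kb, where skin scored 16.2, 10.8, 38.3, 29.5 and 19.2, and culture 3.16 in noDOX, none with WT-SOX9, 11.5 with SOX9+AFOS and 8.16 with SOX9+ARID1a. The region at +124.9 kb appeared after W2 (10.1 at W6 and 5.94 at W12) and was also the highest opened by WT-SOX9 (9.99). A lost region at +97.6 kb scored 3.15 at D0 and 8.10 at W1. The highest closed region, at +70.4 kb, scored 6.58 in noDOX and was present in all culture lists but WT-SOX9 and SOX9+AFOS.

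TBX1, a T-box factor, had 21 regions (chr16:18580979-18590671, minus strand), most of them in the introns and exons of the neighbouring gene Gnb1l or near Sept5. Its gained region at +53.2 kb, which holds a SOX match, scored 13.4 at W2, 11 at W6 and 5.91 at W12, without a peak in culture. The highest region opened by WT-SOX9, at +27.3 kb over a coding exon of Gnb1l, scored 14, with 9.28 in SOX9+AFOS and 3.26 in SOX9+ARID1a and no peak in skin. WT-SOX9 closed 1 region, at −38.2 kb in Sept5 (5.94 in noDOX), which skin had at D0 (12.2), W1 (7.37), W6 (3.89) and W12 (3.65). After W2 a region at +16.2 kb appeared, with 3.58 at W6 and 9.44 at W12, which all 7 culture lists had.

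FOXC1, a forkhead factor, had 16 regions (chr13:31806633-31812476, plus strand). Upstream, the region at −8.8 kb (chr13:31797318-31798389) had no peak at D0 and W1 and scored 29.8 at W2, 15.4 at W6 and 15.6 at W12. At W2 it had the highest score of the window, above the start site. The peak at −5.9 kb, chosen after its values were seen, scored 14.3, 3.91, 20.3, 9.03 and 4.62 in skin. Another 3 upstream regions appeared after W2, at −41.1, −37.8 and −27.0 kb, the highest with 10.5 at W6 and 9.46 at W12. WT-SOX9 opened no Foxc1 region and closed 1, over the coding exon at +1.6 kb, with 4.40 in noDOX, which was also the gene's lost region in skin (4.38 at D0). The gained region and the 3 that appeared after W2 had no peak in any of the 7 culture lists.

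Consensus letters were counted in the central 200 bp of the members' regions and of all regions. In the central 200 bp, 3 of the 17 gained regions (17.6%, interval 6.19 to 41.0%) held a SOX match, namely Tcf7l2 +46.7 kb, Nfix +71.7 kb and Tbx1 +53.2 kb, against 12.2% of all gained regions. Over all 222 skin regions the SOX letters were found in 4.05%, against 5.32% of all skin regions. For AP1 the shares were 14% and 19.5%, for GATA 6.31% and 10.4%, for NFI 16.2% and 16.4%, and for RUNX 16.7% and 14.9%. Of the 12 regions closed by WT-SOX9, 6 held an AP1 match and 3 a GATA match (50% and 25%, against 29.9% and 10.6% of all closed regions). The skin classes went the other way. Of the 14 lost in skin, 1 held an AP1 match (7.14%, against 12.2%) and 2 a GATA match (14.3%, against 23.1%). AP1 letters were at 2 of the 17 gained (11.8%, against 26.9%) and 1 of the 12 appearing after W2 (8.33%, against 39.9%). Of the 27 opened, as joined over the culture lists, 1 held a SOX match (3.70%, against 16.8% of all opened regions). Centres move with the lists that are joined: the match of Nfix +71.7 kb, an opened region too, lies in the centre set by all 12 lists and outside that set by the culture lists. Of the 9 regions opened in both systems, joined over all 12 lists, 2 held one (22.2%, against 18.8%).

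For comparison, 16 relatives and cofactors of the members (Tcf7, Lef1, Nfia, Nfic, Nfatc2, Nfatc3, Nfatc4, Foxc2, Lhx6, Tbx2, Tbx3, Ldb1, Tle1, Tle3, Tle4 and Ctnnb1) had 251 skin regions. Of these 44.6% were present in all 5 lists, 17 (6.77%) were gained at W2, staying to W12, and 14 (5.58%) were lost. WT-SOX9 opened 18 of 76 regions absent in noDOX (23.7%) and closed 35 of 143 present (24.5%), and 3 regions (2 at Tle1, 1 at Foxc2) were opened both in skin and in culture. Among 12 epidermal transcription factors, such as Trp63, Gata3 and Klf4, 46.7% of 229 skin regions were present in all 5 lists, 11 (4.80%) were gained and 10 (4.37%) lost. There WT-SOX9 opened 14 of 56 (25.0%) and closed 32 of 120 (26.7%), and 1 region, at Tfap2c, opened in both. Peaks appearing after W2 made up 1.75% of epidermal regions, against 5.98% for the relatives and 5.41% for the members, a count that was 6 in place of 12 under the alternatives given above. These differences between lists were not tested.

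The windows whose summed scores went most like a member's over the 12 lists, on the log2(1 + sum) scale, are given by Pearson's r as a description, since all windows share the same 12 lists. Tcf7l2 went with Lifr and Ldb3 (r = 0.98 each) and Tagln3 (0.97), and Nfib with Ppargc1a, Nts and Thrsp (0.97 each). For Nfatc1 they were Sema3c (0.95) and Mmp27 (0.94), for Foxc1 Morc4 (0.94), Fggy and Pip (0.93 each), and for Lhx2 Slc16a9 and Cldn10 (0.92 each) and Serpinb13 (0.91). Nfix went with Polg2 (0.97), Mthfd1 and Tmem205 (0.95 each), Tbx1 with Rrm1 (0.94), Usp25 and Kcnj15 (0.93 each), and Tcf7l1, with the lowest values, with Trim59 (0.87), Btbd18 and Nemf (0.86 each).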

How the data were processed

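ATAC-seq was measured in 24 samples, 2 for each of 12 groups. Per the processing notes of the samples, reads were aligned to mm10 (GRCm38) with Bowtie2 2.2.9 and peaks were called with MACS2 2.1.1. Picard 2.3.0, SAMtools 1.9 and deepTools 2.5.4 were also used. The study's methods name the PEPATAC pipeline for aligning the ATAC-seq reads, and state that replicates were merged before peak calling. The deposited lists hold peak positions and the authors' normalized score (minimum 3); the skin lists also hold the authors' fold enrichment (a ratio) and −log10 q-value. The score, which in the skin lists is a rescaled −log10 q, is the measure used, and fold enrichment was compared between D0 and W2. Read depth is not in the files used here, so depth behind a peak is unknown. From these lists, peaks overlapping by at least 1 bp were joined into regions, over the skin lists, the culture lists or all 12, and the highest score in each list was kept (Python 3.11.15, numpy 2.4.6, pandas 2.3.3, matplotlib 3.10.9). Genes are from GENCODE release M 21. With 1 merged list for each group no test was made.

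Members and lists were chosen with earlier results of these data known. Regions named for each member are those over its start sites, the highest-scoring of each class and those gained at W2 and opened by WT-SOX9 (or scored 2-fold higher in both); others are said to be chosen after their values were seen. Alternatives were a score minimum of 5, lists of equal length, a common q minimum, regions kept only where peaks cover at least 0.5 of them, windows of 10 and 100 kb and regions joined over all 12 lists. The region and class code was tested on simulated peak lists. A few neighbouring or similar genes are not reported here.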

Additional observations from a re-analysis of the deposited data

Results flagged for a closer look

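The Nfatc1 region at +68.9 kb moved in opposite directions in skin and in culture. Its score was 16.2 at D0 and 38.3 at W2, whereas in culture a peak of 3.16 in noDOX was not called with WT-SOX9. By fold enrichment the skin rise was smaller, from 10.3 at D0 to 12.7 at W2, and below 2-fold. Each value is from 1 merged list, the noDOX score lies close to the lowest listed score of 3, and the difference between the systems was not tested.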

How the results depend on the processing

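No paired analysis was possible because the samples of each group were merged before peak calling and no list carries a replicate; for the same reason no replicate could be left out. Of 73 alternative values, 58 stayed within 1.5 times the count in the report and 15 did not. With a common −log10 q minimum of 14.5 in the skin lists, regions in all 5 lists numbered 49, gained regions 11, lost regions 35, regions appearing after W2 6, and regions gained at W2 and opened by WT-SOX9 4. With windows of 10 kb there were 11 gained regions, 5 that appeared after W2 and 18 opened by SOX9+ARID1a, and with windows of 100 kb 22 closed by WT-SOX9 and 14 opened in both systems, since fewer or more regions enter. With lists of the same length 22 regions were lost and 6 appeared after W2, with a score of at least 5, 6 appeared after W2, and with peaks required to cover at least 0.5 of a region 5 opened in both systems. By presence alone 13 of 13 regions moved the same way. The share opened by SOX9+AFOS stayed between 51.4% and 65.9% (all regions, 31.2% to 39.4%), the share closed by WT-SOX9 between 14.1% and 19.7% (27.2% to 33.3%), and the share moving the same way between 83.3% and 100% (68.5% to 72.4%) under the alternatives run for each. The alternatives without the W1 or W12 list, those for regions moving the same way, the AFOS list in place of noDOX and fold enrichment in place of the score (given with the skin comparisons) were chosen after seeing the data.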
